A study of Mus musculus with 15 samples.

Results

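The 10 genes described here, Mdm2, Cdkn1a, Ccng1, Bax, Bbc3, Perp, Phlda3, Eda2r, Sesn2 and Trp53inp1, are well-known transcriptional targets of p53, chosen by their gene symbols from the 78298 genes in the count files. All 10 passed the filter on low counts. Their poly-A RNA was measured by RNA-seq in mouse small intestinal organoids, which are primary cultures of intestinal epithelium grown from crypts. There were 15 libraries, 3 for each of 5 conditions. The organoids, which the methods trace to crypts of adult female mice bred on C57BL/6J, had all been transduced with lentiviral transgenes under the weak ubiquitous L30 promoter with a puromycin resistance gene. Control organoids (Halo-NLS) carried V5-Halo-NLS, a HaloTag with a nuclear localization signal. The other lines expressed the transcription factor SOX9 fused to Halo-V5 (SOX9-Halo) or to mEGFP-V5 (SOX9-mEGFP), each sampled with budding morphology (SOX9-Halo_budding and SOX9-mEGFP_budding) and, after longer culture, as spheroids (SOX9-Halo_spheroid and SOX9-mEGFP_spheroid). The spheroids also carried a second transgene, H2B-mEGFP-V5 with Zeocin resistance in the SOX9-Halo line and H2B-mScarletI-V5 with neomycin resistance in the SOX9-mEGFP line. The methods name Zeocin and Geneticin, respectively, for their selection, and describe stable lines as cultured with selection antibiotics. There was 1 line per tag, so that morphology, time in culture, the second transgene and its selection drug cannot be told apart. Nor can a line and its tag or, between the spheroids, the line and its drug. The series calls the replicates biological but does not say whether they came from separate cultures or mice, and p-values measure the spread between these samples.

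The transcription factor p53 is stabilized when DNA is damaged or an oncogene is active, and it then binds response elements near its target genes and raises their transcription. Its targets halt the cell cycle, promote apoptosis, adjust metabolism and, through MDM2, feed back on p53 itself, which MDM2 ubiquitinates for degradation. In the intestinal crypt the pathway is known for the death and arrest of stem and progenitor cells after irradiation. In cultured cells it is known as a barrier to unlimited growth, engaged by the Cdkn2a product ARF, which binds MDM2.

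Each member was located in GRCm39, the build of the count files, with the GENCODE M39 annotation. Mdm2 lies at chr10:117524780-117546730, Cdkn1a at chr17:29309936-29319701, Ccng1 at chr11:40639377-40646148, Bax at chr7:45111015-45116325, Bbc3 at chr7:16042318-16052130, Perp at chr10:18720715-18732821, Phlda3 at chr1:135693809-135697686, Eda2r at chrX:96320270-96420847, Sesn2 at chr4:132219335-132237815 and Trp53inp1 at chr4:11156412-11175230. The 3000 bases on each side of the start of the canonical transcript were searched for the p53 response element consensus without a spacer, a 20-base motif of a pair of 10-base half-sites, each with the core CNNG. Both cores had to be intact and up to 2 mismatches were allowed elsewhere, and since the consensus is its own reverse complement, the search covers both strands. Of the 10 members, 5 held at least 1 such match, against 870 of 13210 protein-coding genes tested (6.59%). With at most 1 mismatch, Cdkn1a and Ccng1 held a match, against 128 genes (0.969%). A match is a description of the sequence and not a measured site of binding, and the members were chosen as p53 targets. The 6 matches are shown because p53 acts on its targets through such elements, although not every member held a match in this window. Each is printed on the strand of its gene, with the 20 matching bases in capitals and 5 bases on either side.

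Cdkn1a, chr17:29309897-29309926 (plus strand): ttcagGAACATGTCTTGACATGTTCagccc
Ccng1, upstream, chr11:40646284-40646313 (minus strand): aggccAGACCTGCCCGGGCAAGCCTtggca
Ccng1, intronic, chr11:40645758-40645787 (minus strand): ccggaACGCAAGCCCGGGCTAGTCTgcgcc
Bax, chr7:45115993-45116022 (minus strand): cccccGGGCAGGCCCGGGCTTGTCGctggc
Eda2r, chrX:96420135-96420164 (minus strand): tgcctGGGCAAGTCCGGGCCTGTGTaaaaa
Perp, chr10:18718777-18718806 (plus strand): ctcacATTCTAGCCCAGGCTTGCCCagaat

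The Cdkn1a match (1 mismatch) lay at base -2826 from the canonical start (negative positions are upstream), outside the annotated gene. Ccng1 was the member with a pair of matches of 1 mismatch each, at base -161 from its start and 365 bases downstream, the latter in an intron. The Perp match (2 mismatches) lay at base -1923, outside the gene. The Bax and Eda2r matches (2 mismatches each) lay 317 and 689 bases downstream of the starts and overlapped an exon of at least 1 annotated transcript. No match was found in this window for Mdm2, Bbc3, Phlda3, Sesn2 and Trp53inp1.

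**Figure D1:**
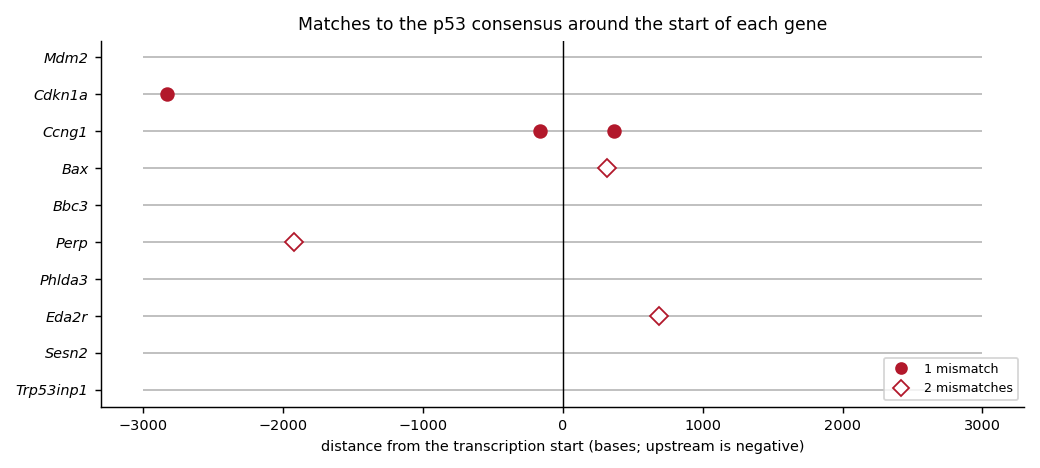
Position of matches to the p53 consensus, as distance in bases from the canonical start (x axis, upstream negative), for each of the 10 members (y axis). Filled circles are matches with 1 mismatch and open diamonds matches with 2, and 5 of the 10 members hold at least 1.

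Between 28062722 and 40559766 reads per library were counted on genes (median 33491297). The lowest member counts, 23 reads for Trp53inp1 and 26 for Eda2r, were both in Halo-NLS replicate 2. Sox9 stood at 305 to 769 normalized counts in Halo-NLS and at 1336 to 23654 in the SOX9 libraries, where reads of the transgene and of the endogenous gene cannot be told apart. Xist, which coats an inactive X chromosome, held at most 8 reads in any Halo-NLS or SOX9-mEGFP library but 1182 to 14811 in SOX9-Halo_budding and 1536 to 2107 in SOX9-Halo_spheroid. Libraries also differed in genes of low GC content. In the fifth of genes lowest in GC content, the median deviation from each gene's mean was -0.88 and -1.01 (log2) in Halo-NLS replicates 2 and 3 and -0.36 in SOX9-Halo_budding replicate 2, against 0.00 to 0.38 in the other 12 libraries. All 6 enterocyte markers were called lower in both spheroid conditions. Summed over them, the level was 5017 to 9803 CPM (reads scaled by each library's size and TMM factor) in Halo-NLS, 205 to 513 in SOX9-mEGFP_spheroid and 1.86 to 5.55 in SOX9-Halo_spheroid. The 5 goblet cell markers and the 4 Paneth cell markers were all called lower in SOX9-Halo_spheroid, where they summed to 16.9 to 22.9 and 0.953 to 1.40 CPM, and stood at 2251 to 3566 and 1117 to 1355 CPM in SOX9-mEGFP_spheroid, as against 2266 to 8194 and 926 to 1234 in Halo-NLS. The Paneth cell sum in SOX9-mEGFP_spheroid hid opposite changes, since Mmp7, which encodes matrilysin, was called higher (6.49 on the log2 scale) and the other 3 Paneth cell markers lower (Lyz1 -5.68, Defa24 -6.41 and Defa17 -8.00). The part of these cell types in the results on the members was not tested. Fewer cells of a type and less RNA per cell cannot be told apart in these bulk samples. The 8 epithelial markers summed to 5448 to 11637 CPM in all libraries, yet 4 were called lower in SOX9-Halo_spheroid (Cdx1 -11.0, Cdx2 -7.35, Vil1 -3.58 and Epcam -1.11) and 2 in SOX9-mEGFP_spheroid (Cdx1 -6.46 and Cdx2 -2.51), and the keratin gene Krt18 was called higher in both. Cdx1 and Cdx2 encode transcription factors that define intestinal epithelium. The part of these markers in the results was not tested. The fibroblast, immune and endothelial lists summed to at most 5.42 CPM each.

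**Figure D2:**
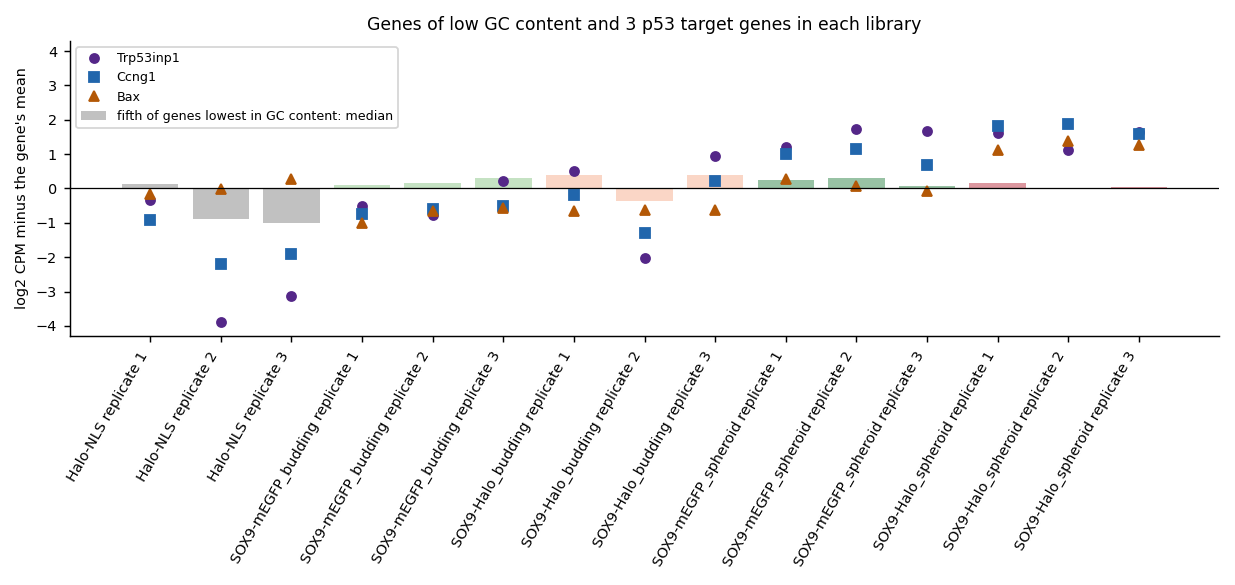
Deviation from the gene's mean over the 15 libraries (y axis, log2 CPM) in each library (x axis). Bars are the median of the fifth of genes lowest in GC content, which falls to -0.88 and -1.01 in Halo-NLS replicates 2 and 3, and points are Trp53inp1, Ccng1 and Bax, whose GC contents are 38.4%, 40.7% and 63.5%.

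To ask how p53 target genes differed in the spheroids, each condition was compared in a single edgeR quasi-likelihood fit to all 15 libraries. A gene was called at a Benjamini-Hochberg adjusted p of at most 0.01 over all 17560 genes tested, at least a 2-fold difference, and an average of 10 or more normalized counts. In SOX9-Halo_spheroid against Halo-NLS, 8 of the 10 members were called higher, where 13.6% of all tested genes were called higher and 15.3% lower. Cdkn1a and Sesn2 were the exceptions. In SOX9-mEGFP_spheroid against Halo-NLS, 6 members were called higher (Mdm2, Ccng1, Perp, Phlda3, Eda2r and Trp53inp1), where 15.3% of all genes were called higher and 12.1% lower. In this fit no member was called lower in any of the 9 comparisons. The median log2 difference of the members was 2.20 in SOX9-Halo_spheroid and 1.54 in SOX9-mEGFP_spheroid, beside -0.01 and 0.03 over all tested genes. Both comparisons share the Halo-NLS libraries. Scaled by library sizes alone, the median of all genes against Halo-NLS moved to between 0.27 and 0.31, genes called higher rose from 2392 to 3102 of 5331 called in SOX9-Halo_spheroid (5074 called with TMM scaling), and the members called were 9 and 6.

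Against budding organoids of their own line, 8 members were called higher in SOX9-Halo_spheroid, where 10.5% of all genes were. These were Mdm2, Ccng1, Bax, Bbc3, Perp, Phlda3, Eda2r and Sesn2. In SOX9-mEGFP_spheroid, 4 members were called higher against SOX9-mEGFP_budding (Ccng1, Perp, Phlda3 and Eda2r), where 8.55% of all genes were. The members' median log2 differences were 1.70 and 1.04, beside -0.08 and -0.04 over all tested genes. In both lines, all 10 fitted differences were above 0, although Cdkn1a and Trp53inp1 passed the test in neither line.

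In the budding organoids the members held no common direction. Against Halo-NLS, 0 of the 10 members were called in SOX9-mEGFP_budding and 0 in SOX9-Halo_budding by edgeR, where 2.76% and 3.75% of all tested genes were called in either direction. At an unadjusted p under 0.05 there were 6 and 7 members, and DESeq2 called 0 and 2, the latter being Cdkn1a and Ccng1. No share of all tested genes stands beside these unadjusted and DESeq2 counts, so they are not read as particular to the members. The members' medians were 0.00 and 0.02 on the log2 scale, beside 0.03 and 0.01 over all genes. Without Halo-NLS replicate 1, edgeR called Mdm2, Ccng1 and Trp53inp1 higher in both budding conditions, so that each count rested on that library. Calls over all tested genes then rose as well, to 11.9% and 12.9%. The controls left, Halo-NLS replicates 2 and 3, were low in genes of low GC content (-0.88 and -1.01, against 0.14 in replicate 1). The GC content was 48.2% for Mdm2, 40.7% for Ccng1 and 38.4% for Trp53inp1. The part of this trend in the 3 calls was not tested. Between the budding conditions, edgeR and DESeq2 called 0 members (1 at an unadjusted p under 0.05), where 0.456% of all genes were called.

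**Figure D3:**
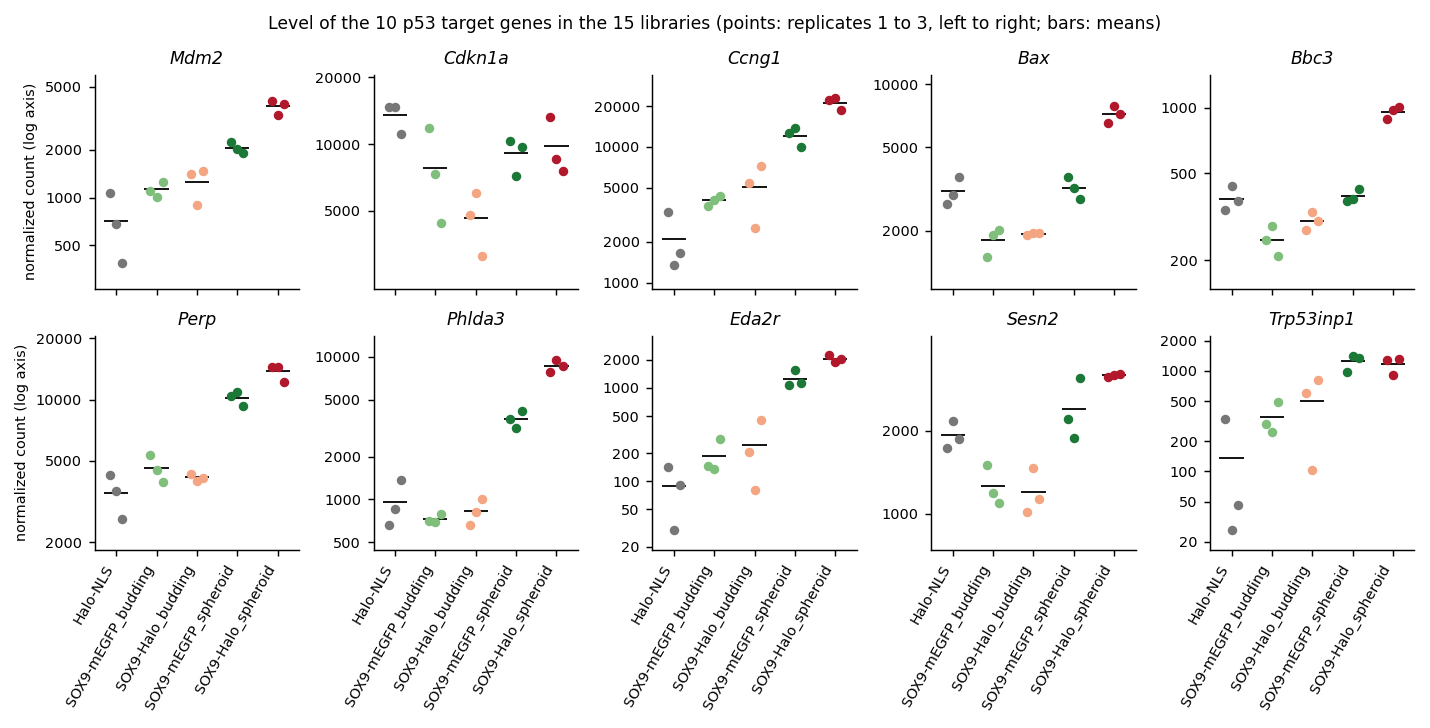
Normalized counts (y axis, log scale) of the 10 p53 target genes in the 5 conditions (x axis), with points for replicates 1 to 3 and bars for means. The 3 SOX9-Halo_spheroid libraries lie above all other libraries for Mdm2, Ccng1, Bax, Bbc3, Perp, Phlda3, Eda2r and Sesn2, and no such gap is seen for Cdkn1a or Trp53inp1.

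Mdm2, the E3 ubiquitin ligase and feedback inhibitor of p53, was higher in both spheroid conditions than in the control. It stood at 1063, 680.5 and 388 normalized counts in Halo-NLS replicates 1 to 3, at 1107, 1005 and 1261 in SOX9-mEGFP_budding, at 1416, 891 and 1473 in SOX9-Halo_budding, at 2245, 2015 and 1918 in SOX9-mEGFP_spheroid and at 4092, 3335 and 3921 in SOX9-Halo_spheroid. The spheroid conditions overlapped neither with each other nor with the other conditions, whereas the remaining conditions overlapped. The log2 difference from Halo-NLS was 2.41 ± 0.31 (SE, adjusted p = 1.21e-05) in SOX9-Halo_spheroid and 1.54 ± 0.30 (adjusted p = 0.000722) in SOX9-mEGFP_spheroid. Against budding organoids it was 1.59 ± 0.30 in the SOX9-Halo line (adjusted p = 0.000484) and 0.87 ± 0.29 in the SOX9-mEGFP line, which missed the threshold (adjusted p = 0.0358). Without the 3 libraries low in genes of low GC content, Halo-NLS replicate 1 was the only control left. The SOX9-mEGFP_spheroid difference from Halo-NLS was then 0.90. In a fit of the compared libraries alone, the difference of SOX9-mEGFP_spheroid from Halo-NLS was not called.

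Cdkn1a encodes p21, an inhibitor of cyclin-dependent kinases and the best-known p53 target in cell-cycle arrest, and it did not share the pattern of the other members. Its levels were 14609, 14639 and 11092 normalized counts in Halo-NLS, 11787, 7297 and 4404 in SOX9-mEGFP_budding, 4795, 6006 and 3139 in SOX9-Halo_budding, 10358, 7182 and 9711 in SOX9-mEGFP_spheroid and 13201, 8598 and 7533 in SOX9-Halo_spheroid. SOX9-Halo_budding lay below Halo-NLS and below both spheroid conditions, SOX9-mEGFP_spheroid lay below Halo-NLS, and SOX9-Halo_spheroid overlapped both of these. The log2 difference from Halo-NLS was -0.46 ± 0.33 in SOX9-Halo_spheroid (adjusted p = 0.27) and -0.57 ± 0.33 in SOX9-mEGFP_spheroid (adjusted p = 0.169). In SOX9-Halo_budding it was -1.53 ± 0.34, just outside the threshold (adjusted p = 0.0104). From SOX9-Halo_budding to SOX9-Halo_spheroid the difference was 1.07 ± 0.34 (adjusted p = 0.0182). With the replicate number as a block within this line it was 1.04 and was called (edgeR, adjusted p = 0.00767), which made 9 members called. That block takes the numbers to pair the libraries, which rests on a correlation in these data and on no label. Reads of the antisense genes Dino (523 in all 15 libraries) and Gm64878 (41) cannot be told from those of Cdkn1a, since counting ignored strand.

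Ccng1 encodes cyclin G1, a cyclin that recruits a phosphatase to MDM2. Normalized counts were 3313, 1354 and 1663 in Halo-NLS, 3692, 4099 and 4346 in SOX9-mEGFP_budding, 5436, 2542 and 7209 in SOX9-Halo_budding, 12566, 13770.2 and 10075 in SOX9-mEGFP_spheroid and 22129.9, 22801 and 18749.9 in SOX9-Halo_spheroid. The 3 spheroid libraries of each line were above every budding and control library, and those of the SOX9-Halo line were above those of the SOX9-mEGFP line. On the log2 scale Ccng1 differed from Halo-NLS by 3.33 ± 0.38 in SOX9-Halo_spheroid (adjusted p = 3.92e-06) and by 2.52 ± 0.36 in SOX9-mEGFP_spheroid (adjusted p = 6.23e-05), and from the budding organoids by 2.07 ± 0.36 (adjusted p = 0.000249) and 1.58 ± 0.35 (adjusted p = 0.00303). The last of these calls was lost without any 1 of 4 libraries, replicates 1 and 2 of SOX9-mEGFP_budding and of SOX9-mEGFP_spheroid (adjusted p up to 0.0162). The lowest values, in Halo-NLS replicates 2 and 3 and SOX9-Halo_budding replicate 2, fell in the libraries low in genes of low GC content. With the GC and length trend of each library removed, the differences from Halo-NLS were 2.92 and 2.07. Nudcd2, on the opposite strand, overlaps the end of Ccng1 (33436 counts in all 15 libraries), and reads in the overlap could have been lost to either gene.

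Among the apoptotic members, Bax and Bbc3 rose in the spheroids of the SOX9-Halo line, and Perp, Phlda3 and Eda2r in the spheroids of both lines. Bax encodes the pore-forming effector of the mitochondrial pathway. It was measured at 2695, 2962 and 3629 normalized counts in Halo-NLS, 1500.3, 1920.0 and 2017 in SOX9-mEGFP_budding, 1915, 1958 and 1960.0 in SOX9-Halo_budding, 3631, 3187 and 2832 in SOX9-mEGFP_spheroid and 6549, 7859 and 7172 in SOX9-Halo_spheroid. SOX9-Halo_spheroid was above all other libraries, SOX9-mEGFP_spheroid overlapped Halo-NLS, and the budding organoids were below all of these. The difference from Halo-NLS was 1.22 ± 0.18 in SOX9-Halo_spheroid (adjusted p = 5.03e-05) and 0.06 ± 0.18 in SOX9-mEGFP_spheroid (adjusted p = 0.807). Against the budding organoids it was 1.89 ± 0.18 in the SOX9-Halo line (adjusted p = 8.35e-07) and 0.83 ± 0.18 in the SOX9-mEGFP line, where p passed (adjusted p = 0.00232) but the fold did not. With the GC and length trends of each library removed the latter was 1.06 and was called. In the budding organoids Bax was -0.77 ± 0.18 and -0.67 ± 0.18 from Halo-NLS in the SOX9-mEGFP and SOX9-Halo lines (adjusted p = 0.0148 and 0.0208), which did not pass, and with trends removed these were -0.07 and 0.23. Bax is rich in GC (63.5%), and with trends removed its difference from Halo-NLS was 0.99 in SOX9-mEGFP_spheroid (adjusted p = 0.000406), just under the fold threshold, and 1.76 in SOX9-Halo_spheroid.

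Bbc3 encodes PUMA, a BH3-only protein that binds antiapoptotic BCL2 proteins, and its pattern over the libraries was the closest to that of Bax. It held 339.8, 435 and 372 normalized counts in Halo-NLS, 247, 288 and 208 in SOX9-mEGFP_budding, 274, 331 and 303 in SOX9-Halo_budding, 375, 383 and 422 in SOX9-mEGFP_spheroid and 891, 979 and 1008 in SOX9-Halo_spheroid. As for Bax, SOX9-Halo_spheroid stood above all other libraries and SOX9-mEGFP_spheroid overlapped Halo-NLS. The SOX9-Halo_spheroid difference was 1.33 ± 0.19 from Halo-NLS (adjusted p = 4.96e-05) and 1.66 ± 0.20 from SOX9-Halo_budding (adjusted p = 6.42e-06). In SOX9-mEGFP_spheroid it was 0.04 ± 0.19 from Halo-NLS (adjusted p = 0.874) and 0.67 ± 0.19 from SOX9-mEGFP_budding (adjusted p = 0.0165), neither of which passed. With trends removed, the value in SOX9-mEGFP_spheroid against Halo-NLS was 0.76 (adjusted p = 0.00203), short of the fold threshold.

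Perp encodes a tetraspan membrane protein of desmosomes that also takes part in p53-dependent apoptosis. Counts were 4283, 3578 and 2596 in Halo-NLS, 5361, 4490.0 and 3934 in SOX9-mEGFP_budding, 4328, 3978 and 4139 in SOX9-Halo_budding, 10444, 10938 and 9249.8 in SOX9-mEGFP_spheroid and 14521, 14458 and 12248 in SOX9-Halo_spheroid. Control and budding libraries overlapped, and all 6 spheroid libraries were above them. Perp rose by 1.98 ± 0.20 in SOX9-Halo_spheroid (adjusted p = 1.22e-06) and by 1.55 ± 0.20 in SOX9-mEGFP_spheroid (adjusted p = 1.92e-05) against Halo-NLS. The rise from budding organoids was 1.73 ± 0.20 (adjusted p = 4.78e-06) and 1.15 ± 0.19 (adjusted p = 0.000362).

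Phlda3 encodes a pleckstrin homology domain protein that represses AKT at the membrane. Its normalized counts were 659, 855 and 1368 in Halo-NLS, 712, 691 and 797 in SOX9-mEGFP_budding, 663, 820.3 and 1007 in SOX9-Halo_budding, 3687, 3153 and 4165 in SOX9-mEGFP_spheroid and 7820.0, 9483 and 8577 in SOX9-Halo_spheroid. The 9 control and budding libraries overlapped, and the spheroids of each line were apart from them and from each other. The log2 difference from Halo-NLS was 3.17 ± 0.26 in SOX9-Halo_spheroid (adjusted p = 1.73e-07) and 1.93 ± 0.25 in SOX9-mEGFP_spheroid (adjusted p = 2.31e-05). Against the budding organoids it was 3.38 ± 0.26 (adjusted p = 1.19e-07) and 2.32 ± 0.25 (adjusted p = 7.41e-06).

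Eda2r encodes a receptor of the TNF receptor family for ectodysplasin A2 and was the least abundant member per exon length in Halo-NLS. Normalized counts were 144, 29.8 and 91.8 in Halo-NLS, 145, 136 and 281 in SOX9-mEGFP_budding, 208, 81.7 and 449.8 in SOX9-Halo_budding, 1064, 1558 and 1118 in SOX9-mEGFP_spheroid and 2242, 1893 and 2035 in SOX9-Halo_spheroid. All spheroid libraries were above all others, while the control and budding libraries overlapped and spread widely. It rose by 4.54 ± 0.61 in SOX9-Halo_spheroid (adjusted p = 2.31e-05) and by 3.82 ± 0.60 in SOX9-mEGFP_spheroid (adjusted p = 0.000123), the largest differences from Halo-NLS among the members in this fit. Against the budding organoids the log2 differences were 3.06 ± 0.57 (adjusted p = 0.000454) and 2.73 ± 0.56 (adjusted p = 0.00173), the latter not called without SOX9-mEGFP_budding replicate 1 or 2. Eda2r is X-linked and low in GC content (40.4%). The median log2 difference of all tested X-linked genes from Halo-NLS was 0.36 in SOX9-Halo_spheroid and 0.48 in SOX9-mEGFP_spheroid, and with trends removed Eda2r differed by 3.79 and 2.90 and was called in both.

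Of the members in stress and metabolism, Sesn2 encodes sestrin 2, an inhibitor of mTORC1 that is also a target of ATF4. It held 1729, 2169 and 1874 normalized counts in Halo-NLS, 1498, 1192 and 1096 in SOX9-mEGFP_budding, 1017, 1460.5 and 1127 in SOX9-Halo_budding, 2205, 1877 and 3109.6 in SOX9-mEGFP_spheroid and 3142, 3180.2 and 3218 in SOX9-Halo_spheroid. SOX9-Halo_spheroid was above all other libraries and nearly uniform, the budding conditions were below all others, and SOX9-mEGFP_spheroid overlapped Halo-NLS. The difference of 0.72 ± 0.21 between SOX9-Halo_spheroid and Halo-NLS missed both thresholds (adjusted p = 0.0116). From budding to spheroid it was 1.40 ± 0.22 in the SOX9-Halo line (adjusted p = 9.17e-05) and 0.93 ± 0.22 in the SOX9-mEGFP line (adjusted p = 0.00419, under 2-fold). In SOX9-mEGFP_spheroid against Halo-NLS it was 0.32 ± 0.21 (adjusted p = 0.228).

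Trp53inp1 encodes a nuclear protein that promotes p53 phosphorylation and autophagy, and its replicates spread widely. It stood at 335, 26.4 and 46.5 normalized counts in Halo-NLS, 298, 248 and 487 in SOX9-mEGFP_budding, 601, 103 and 815 in SOX9-Halo_budding, 979.7, 1411 and 1351 in SOX9-mEGFP_spheroid and 1293, 914 and 1321 in SOX9-Halo_spheroid. All 6 spheroid libraries lay above the others, the conditions within spheroids overlapped, and the lowest values again fell in Halo-NLS replicates 2 and 3 and SOX9-Halo_budding replicate 2. The difference from Halo-NLS was 3.12 ± 0.80 in SOX9-Halo_spheroid (adjusted p = 0.00501) and 3.20 ± 0.81 in SOX9-mEGFP_spheroid (adjusted p = 0.0046), and with the trends removed 2.77 and 2.74. Without any 1 library of a compared condition it ranged from 2.63 to 5.02 and from 2.71 to 5.11. Without the 3 libraries low in genes of low GC content, which left Halo-NLS replicate 1 as the only control, it was 1.79 and 1.84. The call was lost in both comparisons in a fit of the compared libraries alone and without Halo-NLS replicate 2 or 3, in SOX9-Halo_spheroid also without its replicate 1 or 3, and in SOX9-mEGFP_spheroid also without its replicate 2 or 3. Against the budding organoids the differences of 1.22 ± 0.74 (adjusted p = 0.217) and 1.85 ± 0.76 (adjusted p = 0.0858) did not pass. The latter was called with the trends removed.

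**Figure D4:**
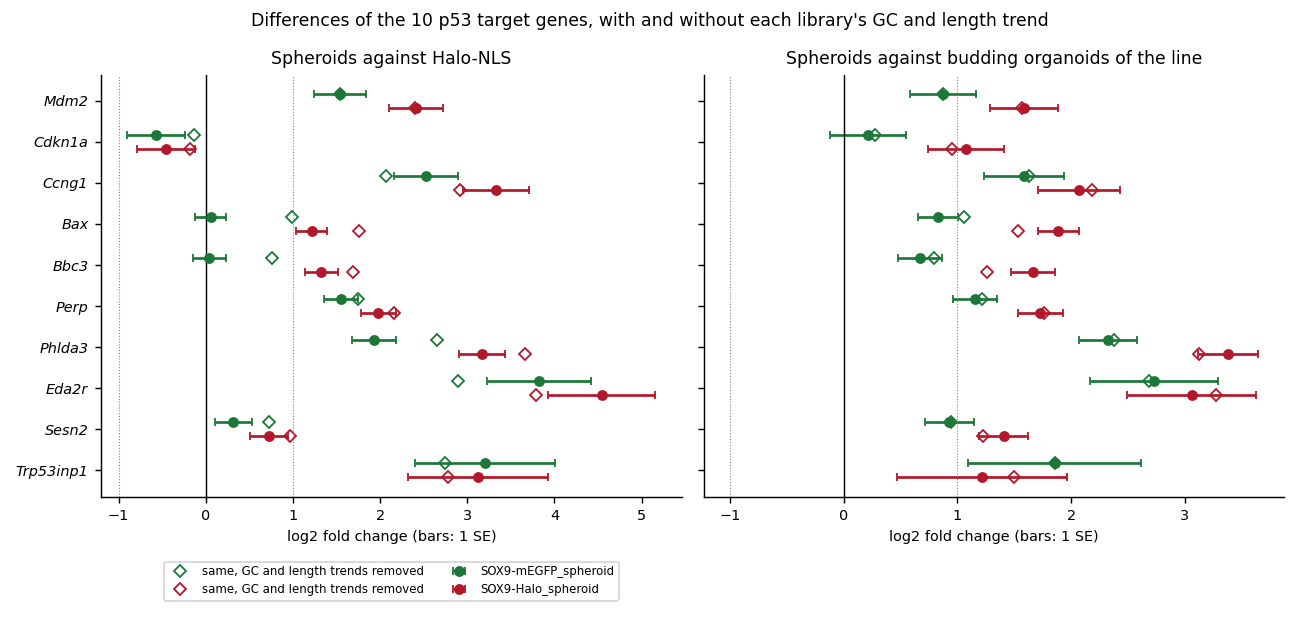
Log2 fold change of each member (y axis) in spheroids against Halo-NLS and against budding organoids of the same line (x axes), with bars of 1 SE and dotted lines at the 2-fold threshold. Open diamonds give the value with the GC and length trends of each library removed, which for Bax in SOX9-mEGFP_spheroid against Halo-NLS is 0.99 as compared with 0.06, and for Eda2r 2.90 as compared with 3.82.

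Per kilobase of exon, the order of the members differed between conditions. In Halo-NLS, Cdkn1a had the highest level (66.3 CPM per kb), followed by Perp (51.8), Bax (49.7), Ccng1 (14.3), Sesn2 (12.6), Phlda3 (11.1), Mdm2 (2.75), Bbc3 (2.38), Trp53inp1 (0.551) and Eda2r (0.352). In SOX9-Halo_spheroid the order was Perp (204), Ccng1 (144), Bax (115), Phlda3 (99.3), Cdkn1a (48.2), Sesn2 (20.9), Mdm2 (14.6), Eda2r (8.17), Bbc3 (5.97) and Trp53inp1 (4.77). Cdkn1a thus went from the first to the fifth place. This order is a description of means of 3 libraries and was not tested.

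The direct comparison of the spheroids asked whether the lines differed. In SOX9-Halo_spheroid against SOX9-mEGFP_spheroid, 3 of the 10 members were called higher, where 3.59% of all genes were. These were Bax (1.16 ± 0.18, adjusted p = 0.000186), Bbc3 (1.29 ± 0.19, adjusted p = 0.000158) and Phlda3 (1.23 ± 0.24, adjusted p = 0.00157). Mdm2 (0.88 ± 0.29, adjusted p = 0.0402) and Ccng1 (0.81 ± 0.35, adjusted p = 0.11) did not pass, although their libraries did not overlap. The same held for Perp (0.43 ± 0.19, adjusted p = 0.127), Sesn2 (0.41 ± 0.21, adjusted p = 0.193) and Eda2r (0.72 ± 0.53, adjusted p = 0.361). No share of all genes without overlap stands beside this, so it is not read as particular to the members. Cdkn1a and Trp53inp1 had the smallest differences, 0.11 ± 0.33 and -0.08 ± 0.73. With the trends removed Bax (0.78) and Bbc3 (0.93) fell under the fold threshold and 1 member, Phlda3, was called. Phlda3 was not called without SOX9-mEGFP_spheroid replicate 2.

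The change from budding to spheroid was compared between the lines with an interaction term, and 1 member was called, Bax, where 1.81% of all tested genes were called higher. Its change was larger by 1.06 ± 0.25 in the SOX9-Halo line (adjusted p = 0.00972). Bbc3 followed with 0.99 ± 0.27 (adjusted p = 0.0244) and Phlda3 with 1.05 ± 0.34 (adjusted p = 0.0583), neither of which passed. The median over the members was 0.64, beside -0.08 over all tested genes. With trends removed the Bax value was 0.47 (adjusted p = 0.249), and it lost its call without any 1 of 11 of the 12 libraries compared, SOX9-mEGFP_budding replicate 1 being the exception.

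The regulators of p53 were read from a list of 17 genes, of which 15 were tested. In SOX9-Halo_spheroid against Halo-NLS 3 were called higher and 0 lower, and in SOX9-mEGFP_spheroid 2 and 0. Of all tested genes, 13.6% and 15.3% were called higher there, so these counts of 15 lie near the shares over all genes. In the budding organoids 1 was called higher in SOX9-mEGFP_budding and 2 in SOX9-Halo_budding, beside 2.76% and 3.75% of all genes in either direction. Trp53 itself was called in neither spheroid condition, at -0.27 ± 0.28 in SOX9-Halo_spheroid (adjusted p = 0.454) and -0.66 ± 0.28 in SOX9-mEGFP_spheroid (adjusted p = 0.0626). Nor was it called in SOX9-mEGFP_budding (-0.31 ± 0.28) or SOX9-Halo_budding (-0.44 ± 0.28). Trp53 ranged from 2471 to 5804 normalized counts over all 15 libraries. Cdkn2a, which encodes ARF and the kinase inhibitor p16 and whose transcripts these gene counts do not separate, held at most 3 reads in each Halo-NLS library and 2 to 7 in the budding libraries, but 1185 to 1909 reads in SOX9-mEGFP_spheroid and 1017 to 1932 in SOX9-Halo_spheroid. Cdkn2a was called higher in both (adjusted p = 8.54e-10 in SOX9-Halo_spheroid and 1.68e-09 in SOX9-mEGFP_spheroid), and no library of a spheroid condition came near the others. Trp53bp1, a scaffold of the DNA double-strand break response, rose by 2.12 ± 0.25 and 2.11 ± 0.25. It was called against Halo-NLS in all 4 conditions, the budding ones included. Its means were 293 normalized counts in Halo-NLS, 723 in SOX9-mEGFP_budding and 829 in SOX9-Halo_budding. In SOX9-mEGFP_spheroid and SOX9-Halo_spheroid they were 1264 and 1270. Pml, which organizes nuclear bodies, rose by 1.29 ± 0.34 in SOX9-Halo_spheroid (adjusted p = 0.00576) and stood at 0.59 ± 0.34 in SOX9-mEGFP_spheroid (adjusted p = 0.155). Usp7, a deubiquitinase of MDM2 and p53, differed by 0.92 and 0.97 (adjusted p = 0.014 and 0.011). Its 1 call against Halo-NLS was in a budding condition. Mean normalized counts of Usp7 were 1913 in Halo-NLS, 4566 in SOX9-mEGFP_budding and 4724 in SOX9-Halo_budding. They were 3738 in SOX9-mEGFP_spheroid and 3626 in SOX9-Halo_spheroid. Mdm4, a partner of MDM2, differed by 1.25 ± 0.65 and 2.03 ± 0.66 (adjusted p = 0.126 and 0.0205), and its 936, 132 and 191 normalized counts in Halo-NLS were lowest in the libraries low in genes of low GC content. The p53 relatives Trp63 and Trp73 were not tested, with at most 18 and 6 reads in any library.

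Further p53 targets, from a list of 37 genes that holds none of the 10 members, moved in both directions. Of the 35 tested, 23 were called higher and 2 lower in SOX9-Halo_spheroid against Halo-NLS (median 1.59), and 15 higher and 4 lower in SOX9-mEGFP_spheroid (median 0.77), where the backgrounds were as for the members. Without the 3 libraries low in genes of low GC content, Halo-NLS replicate 1 was the only control left, and the counts, then lower, are not given. Psrc1, which encodes a microtubule-associated protein, stood at 246, 316 and 414 normalized counts in Halo-NLS, at 4350.3, 5253 and 4192 in SOX9-mEGFP_spheroid and at 8423, 7033 and 8187 in SOX9-Halo_spheroid, with no overlap, and rose by 4.60 ± 0.37 in SOX9-Halo_spheroid (adjusted p = 1.24e-07). Zmat3, an RNA-binding zinc finger gene, Gdf15, a secreted stress cytokine, and Epha2, an ephrin receptor, rose by 2.54 ± 0.39, 2.56 ± 0.33 and 2.31 ± 0.29 in SOX9-Halo_spheroid and by 1.77 ± 0.38, 1.32 ± 0.32 and 1.52 ± 0.28 in SOX9-mEGFP_spheroid. Btg2, an antiproliferative gene, and Ddit4, an inhibitor of mTORC1, rose in SOX9-mEGFP_spheroid (1.10 ± 0.19 and 1.02 ± 0.28) and were at 0.54 ± 0.19 and 0.32 ± 0.27 in SOX9-Halo_spheroid, where they did not pass. The genes called lower, named after their values were seen, were Sesn1 and Trp53cor1 in both conditions and Fas and Steap3 in SOX9-mEGFP_spheroid. Fas, a death receptor, was called lower in SOX9-mEGFP_spheroid (-1.18 ± 0.33) and higher in SOX9-Halo_spheroid (1.15 ± 0.32).

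**Figure D5:**
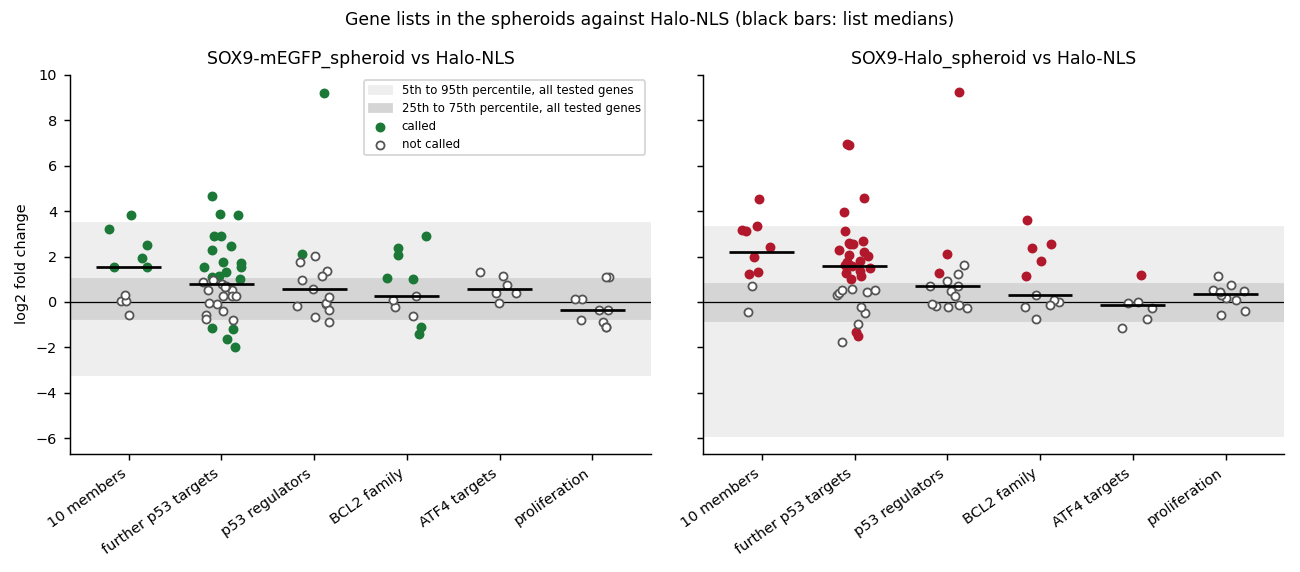
Log2 fold change (y axis) of the genes of 6 lists (x axis) in both spheroid conditions against Halo-NLS, with filled points for called genes, bars for list medians and grey bands for the percentiles of all tested genes. The 10 members have medians of 1.54 and 2.20 and the 35 further p53 targets of 0.77 and 1.59, and edgeR calls no proliferation gene.

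Of 12 BCL2 family genes other than Bax and Bbc3, 11 were tested. Against Halo-NLS, 5 were called higher in each spheroid condition, 0 lower in SOX9-Halo_spheroid and 2 lower in SOX9-mEGFP_spheroid. Over all tested genes, 13.6% were called higher and 15.3% lower in SOX9-Halo_spheroid, and 15.3% and 12.1% in SOX9-mEGFP_spheroid. The 3 survival genes Bcl2l1, Mcl1 and Bcl2 were among those that rose, by 1.79 ± 0.24, 1.13 ± 0.16 and 2.56 ± 0.47 in SOX9-Halo_spheroid and by 1.04 ± 0.24, 1.01 ± 0.16 and 2.40 ± 0.46 in SOX9-mEGFP_spheroid. The BH3-only gene Bik, named after its values were seen, had the largest rise of the family, 3.63 ± 0.51 and 2.93 ± 0.51. Bok, a relative of the effectors Bax and Bak1, rose by 2.37 ± 0.26 and 2.07 ± 0.26. Bak1 (-1.11 ± 0.19) and the BH3-only gene Bad (-1.41 ± 0.21) fell in SOX9-mEGFP_spheroid and were at -0.75 ± 0.19 and -0.14 ± 0.21 in SOX9-Halo_spheroid, where neither was called. The median of all tested genes on the chromosome of Bad was -0.79 in SOX9-mEGFP_spheroid. With the trends removed, 0 genes of the family were called lower in SOX9-mEGFP_spheroid and 4 were called higher, and DESeq2 called 3 higher and 2 lower.

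Because Sesn2 is also induced through ATF4, 6 further ATF4 targets were examined. For these and the proliferation genes below, the edgeR shares over all tested genes were as for the members. Their counts at an unadjusted p are given without such a share. In SOX9-mEGFP_spheroid against Halo-NLS edgeR called 0 of 6 (3 at an unadjusted p under 0.05, and 0 by DESeq2), with a list median of 0.57. In SOX9-Halo_spheroid 1 was called higher, Psat1, a serine synthesis enzyme (1.18 ± 0.21, adjusted p = 0.000289), and the median was -0.15. Of 10 proliferation genes, edgeR called 0 in either spheroid condition (3 and 1 at an unadjusted p under 0.05 in SOX9-mEGFP_spheroid and SOX9-Halo_spheroid), and DESeq2 called 1 lower and 0. Their medians were -0.37 and 0.37.

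The patterns of the members over the 15 libraries were compared by the root mean square difference of log2 CPM centred on each gene's mean. The closest members were Bax and Bbc3 (0.231), and the farthest Cdkn1a and Eda2r (2.08). Among 11003 genes, those nearest to Mdm2, whose own spread by this measure was 0.911, were Ercc5 (0.157), a nucleotide excision repair gene on the list of further p53 targets, Spice1 (0.248) and Epb41l5 (0.252). Nearest to Eda2r (spread 1.92) were Prrg4 (0.392), Slc39a10 (0.428) and Agps (0.485). Nearest to Cdkn1a (spread 0.638) were Cdc42ep2 (0.233), the glycolytic enzyme gene Gapdh (0.257) and Cryz (0.27). These values describe likeness over the same libraries, which share depth and base composition trends.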

How the data were processed

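Libraries were grouped by their labels. Per the labels, the authors trimmed reads with cutadapt 4.5, aligned them to mm39 (GRCm39) with STAR and counted unique alignments per gene with HTSeq 2.0.2 in union mode without strand, and the deposited counts are whole reads per gene, not normalized. Reads on no gene (1.83% to 6.09%) or on more than 1 gene (9.65% to 13.6%) were left out. The deposited normalized table and the authors' comparison tables (DESeq2 fold changes and p-values) were not used. Counts were filtered with filterByExpr, which left 17560 genes, scaled with TMM and fitted with edgeR 4.0.16 (R 4.3.3, limma 3.58.1) with 1 coefficient per condition. The biological coefficient of variation was 0.302. Tests were run beforehand on simulated counts. SE is the log2 difference divided by the square root of F, and normalized counts are TMM-scaled counts at the mean library size. DESeq2 1.42.0 served as an alternative. Trends were removed by lowess (span 0.3) on GC content and length of the longest transcript, entered as offsets. Figures were drawn with Python 3.11.15 and matplotlib 3.10.9. Same-numbered libraries were checked for pairing by correlations of deviations from the condition means over 11054 genes. Between SOX9-Halo_budding and SOX9-Halo_spheroid the 3 correlations were 0.234 to 0.403 (other-numbered mean -0.170). By this correlation alone the numbers were taken to pair them, and no label says what a number marks. In the other 9 pairs of conditions they were not taken to pair. Single correlations there reached 0.817 (Halo-NLS with SOX9-Halo_budding, lowest -0.055). The members, the lists of genes and the rule for named genes (in each list at most 6, the most abundant ones called against Halo-NLS, plus Trp53, Mdm4, Cdkn2a, Trp63 and Trp73) were chosen with earlier results of these data known.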

Additional observations from a re-analysis of the deposited data

Results flagged for a closer look

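Bax was the member whose change from budding organoids to spheroids differed between the lines by the interaction term of the edgeR fit. The change was 1.89 ± 0.18 (log2, SE) in the SOX9-Halo line and 0.83 ± 0.18 in the SOX9-mEGFP line, larger by 1.06 ± 0.25 in the former (edgeR, adjusted p = 0.00972). All 3 spheroid libraries were above all 3 budding libraries in each line. Over the alternatives the difference ran from 0.47, with GC and length trends removed (edgeR, adjusted p = 0.249), to 1.18, without SOX9-mEGFP_budding replicate 1, and DESeq2 gave 1.08 with an adjusted p of 0.000126. The fifth of genes highest in GC content, to which the GC content of Bax (63.5%) comes close, also deviated between libraries. In the SOX9-Halo line it deviated by -0.37 to 0.16 in SOX9-Halo_budding and by -0.06 to 0.14 in SOX9-Halo_spheroid. In the SOX9-mEGFP line it deviated by -0.19 to -0.02 in SOX9-mEGFP_budding and by -0.26 to 0.03 in SOX9-mEGFP_spheroid. The part of this in the difference was not tested further.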

How the results depend on the processing

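Alternatives chosen after the data had been seen were the removal of GC and length trends, the block within the SOX9-Halo line alone and with trends removed, and the omission of 3 libraries low in genes of low GC content. This omission left Halo-NLS replicate 1 as the only control library. Over 9 comparisons, the count of members called left its range of 1.5 times in 5. No share of all tested genes stands beside the counts under alternatives in this section, so they are not read as particular to the members. In SOX9-mEGFP_budding against Halo-NLS it was 2 without a low-count filter and 2 at an adjusted p of at most 0.05 with no fold threshold, and 0 to 3 when 1 library was left out. In SOX9-Halo_budding against Halo-NLS it was 4 without the filter, 4 at the looser threshold, 2 by DESeq2, 1 with the replicate block (Cdkn1a, lower) and 0 to 3 with 1 library left out (2 without SOX9-Halo_budding replicate 2, Cdkn1a and Ccng1). In SOX9-mEGFP_spheroid against SOX9-mEGFP_budding it was 8 at the looser threshold, 6 with trends removed (Bax and Trp53inp1 added) and 2 to 4 with 1 library left out, the 2 without SOX9-mEGFP_budding replicate 2. In SOX9-Halo_spheroid against SOX9-mEGFP_spheroid it was 1 with trends removed. For the interaction it was 0 with library sizes alone, without the filter, with the replicate block over all libraries and with trends removed, 2 by DESeq2, 2 at the looser threshold and 0 to 1 with 1 library left out. Within the SOX9-Halo line the block gave 9 members in place of 8, and 9 with trends removed, where Trp53inp1 (1.61, edgeR adjusted p = 0.00192) stood in place of Cdkn1a (0.91, adjusted p = 0.00379, under the fold threshold). Elsewhere the pairing rests on a shared number alone, and the replicate block over all libraries added Cdkn1a in SOX9-Halo_spheroid against SOX9-Halo_budding as well. Differences that changed sign were small: in SOX9-mEGFP_spheroid against Halo-NLS, Bbc3 was -0.0103 with RLE scaling and -0.00598 in a fit of the compared libraries alone, and -0.0324 to 0.15 with 1 library left out, and Bax -0.0437 to 0.18. Cdkn1a was -0.13 to 0.63 with 1 library left out in SOX9-mEGFP_spheroid against SOX9-mEGFP_budding. Bax was 0.229 with trends removed in SOX9-Halo_budding against Halo-NLS. Between the spheroids Cdkn1a was -0.0492 with trends removed and -0.17 to 0.25 with 1 library left out, and Trp53inp1 was 0.0329 and -0.25 to 0.0652. None of these values passed a test, and the cause of these changes was not tested. Over all 9 comparisons, 10 members and alternatives (1520 values, the looser threshold included), a call was lost in 36 and gained in 46.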
